A study of Homo sapiens with 20 samples.

Results

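Transcripts of 8 ligands of activating natural killer cell receptors were followed in WT and CD47- Jurkat cells. They were the genes named MICA, MICB, ULBP1, ULBP2, ULBP3, NCR3LG1, PVR and NECTIN2, chosen by name as ligands of the receptors NKG2D, NKp30 and DNAM-1, and they make up 8 of the 60719 genes in the deposited table. Jurkat is an established line of human T lymphoblasts, and JinB8 is a somatic mutant of it that lacks CD47 at the cell surface. Each line gave 10 mRNA sequencing libraries, 1 untreated at 1 h and 1 at each of 1, 3 and 6 h for anti-CD3 with anti-CD28 (CD3+CD28), the same with thrombospondin-1 (CD3+CD28+TSP1), and thrombospondin-1 by itself (TSP1, 1 µg/mL). Anti-CD28 was used at 4 µg/mL. Every condition was sequenced once in a line and the mutant is a single line, so a difference between the lines cannot be told apart from a difference between these clones, and the SDs given below for a line span its 10 conditions.

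Natural killer cells and many T cells kill or spare a target according to the sum of activating and inhibitory signals. NKG2D reads the stress-induced, MHC class I-like proteins MICA, MICB and the ULBPs, NKp30 reads B7-H6, the product of NCR3LG1, and DNAM-1 reads the poliovirus receptor PVR (CD155) and NECTIN2 (CD112). The inhibitory receptor TIGIT also binds PVR and NECTIN2, and the inhibitory receptor PVRIG binds NECTIN2. Leukemic T cells are known to carry some of these ligands, and their mRNA levels need not follow their surface levels.

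Totals per library ran from 20483642 to 31737616 expected counts in WT cells and from 16107921 to 28525524 in CD47- cells. Levels are given as CPM, the counts of a gene relative to the TMM-scaled library total. CD47 mRNA ran from 253 to 372 CPM in the WT libraries and from 124 to 165 in the CD47- libraries, so the transcript was lower in the mutant but was still made. All 9 T cell markers were tested and present, and 7 were called between the lines, 5 as higher and 2, ZAP70 and TRBC1, as lower in CD47- cells. Of 22 markers of other lineages, 8 could be tested and 4 were called between the lines, beside 40.4% of all tested genes. CD79A, a B cell gene, was lower in CD47- cells, at 42.2 ± 6.14 (WT) and 6.75 ± 1.95 CPM (CD47-), while NCAM1, a natural killer cell gene, was higher, at 0.740 ± 0.248 and 3.86 ± 1.14 CPM, as were COL1A1, at 1.96 and 4.31 CPM, and KRT8, at 0.908 and 1.92 CPM (SD, n = 10 libraries each, edgeR adjusted p = 1.17e-12, 3.67e-09, 6.36e-06 and 0.000278). The other tested members of these lists, CD79B, CD14, NKG7 and KRT18, were not called, with log2 changes of 0.38, -0.32, 0.08 and -0.26. The 5 natural killer cell markers summed to between 1.25 and 9.18 CPM in the WT libraries and between 6.21 and 12.85 CPM in the mutant ones, and their part in the ligand values was not tested.

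The ligands lie at 4 sites in the genome (GRCh38, GENCODE 44). MICA at chr6:31399784-31415315 and MICB at chr6:31494881-31511124 are neighbours in the MHC region. ULBP2 at chr6:149942014-149949235, ULBP1 at chr6:149963943-149973715 and ULBP3 at chr6:150061053-150069121 sit together on the other arm of that chromosome. NCR3LG1 is at chr11:17351800-17377341. PVR at chr19:44643798-44666162 and NECTIN2 at chr19:44846175-44889223 are close to each other. ULBP3 is on the minus strand and the other 7 are on the plus strand.

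The upstream sequences of MICA and MICB are shown because both transcripts fell with time in both lines, those of ULBP1 and ULBP2 because in these adjoining genes the order of the lines turned over with time, and that of NECTIN2 because it differed most between the lines. They are RefSeq sequences of the plus strand of GRCh38.p14, written 5′ to 3′. For MICA (chr6:31403449-31403478) and MICB (chr6:31497995-31498024), 30 bases around the heat shock unit GAANNTTC are given with that unit in capitals, and 24 of the 30 bases are identical. For ULBP1 (chr6:149963693-149963942) and ULBP2 (chr6:149941764-149942013), the 250 bases before the RefSeq start are given, with the NF-Y box CCAAT of ULBP2 in capitals. For NECTIN2 (chr19:44846047-44846174), the 128 bases before the GENCODE start are given. All 30 MICA and MICB bases lie inside these genes as GENCODE 44 draws them, the MICA stretch within exons of 2 transcripts and the MICB stretch in no exon, while the stretches of ULBP1, ULBP2 and NECTIN2 lie before the genes.
MICA: ccagcccactgGAATTTTCtcttccaagcg
MICB: ccaggccgctaGAATTTTCtcttctgaacg
ULBP1: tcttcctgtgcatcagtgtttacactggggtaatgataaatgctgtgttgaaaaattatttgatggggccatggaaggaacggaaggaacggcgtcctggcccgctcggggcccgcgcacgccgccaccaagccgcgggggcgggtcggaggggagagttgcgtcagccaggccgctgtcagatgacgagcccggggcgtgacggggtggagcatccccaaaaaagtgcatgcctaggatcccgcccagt
ULBP2: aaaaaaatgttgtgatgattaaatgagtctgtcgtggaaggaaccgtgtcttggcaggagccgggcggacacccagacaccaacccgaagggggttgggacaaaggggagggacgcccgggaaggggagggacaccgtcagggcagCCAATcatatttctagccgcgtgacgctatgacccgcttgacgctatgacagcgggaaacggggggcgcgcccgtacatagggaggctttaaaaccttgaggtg
NECTIN2: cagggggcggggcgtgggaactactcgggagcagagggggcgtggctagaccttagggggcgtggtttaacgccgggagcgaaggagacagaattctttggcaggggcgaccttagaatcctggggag

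Windows of 300 bases, from 250 before to 50 after the RefSeq start, were searched on both strands for the E-box CACGTG, the heat shock units GAANNTTC and TTCNNGAA, the ATF4 element TGATGCAA and the NF-Y box CCAAT. The heat shock unit GAANNTTC began 135 bases before the start of MICA and 139 bases before that of MICB, and 6.77% of 35116 human promoter windows hold it. The NF-Y box, which 34.6% of the windows hold, stood 93 and 64 bases before the start of MICA, 97 before that of MICB and 104 before that of ULBP2. None of these letters was found in the windows of ULBP1, ULBP3, NCR3LG1, PVR and NECTIN2. Only exact matches were counted, so a related site with another base would be missed, and their absence does not show that a factor has no site there. The other shares were 7.26% for the E-box, 7.74% for TTCNNGAA and 0.866% for the ATF4 element.

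Of the 8 ligands, 7 were expressed in at least 1 line. Compared per transcript length, as counts divided by isoform length and scaled to the same sum in each library (a TPM scale), MICB (12.9 ± 1.84) and ULBP2 (11.8 ± 1.70) had the highest levels in WT cells, and their ranges overlapped. MICA (8.17 ± 2.90), NCR3LG1 (7.58 ± 1.79) and ULBP1 (6.11 ± 2.84) followed with overlapping spreads. PVR (2.74 ± 0.299) was lower, and NECTIN2 was at 0.287 ± 0.113. In CD47- cells the order began in the same way, with MICB at 13.1 ± 3.98, ULBP2 at 10.6 ± 1.16 and MICA at 8.59 ± 2.55, but NECTIN2 at 6.26 ± 1.82 stood beside ULBP1 at 6.15 ± 2.11, and NCR3LG1 at 5.02 ± 1.87 stood beside PVR at 4.88 ± 0.677 (SD, n = 10 libraries a line throughout). With the longest transcript of each gene as its length, NECTIN2 in CD47- cells came to 3.87 and in WT cells to 0.182, and MICB and ULBP2 stayed at the top of each line. MICA then came to 5.55 in WT and 5.81 in CD47- cells, below NCR3LG1 (9.11 and 6.12) and ULBP1 (7.39 and 7.53). The place of MICA, and that of NECTIN2 beside ULBP1, thus depend on the length used.

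ULBP3 was not detectable at this depth. Its expected counts summed to 2 over the 10 WT libraries and to 3 over the 10 CD47- libraries, with at most 2 in a library. A library's limit of 3 counts corresponded to between 0.0945 and 0.186 CPM, and every value lay under it. The gene was removed by the filter on low counts and was not tested.

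**Figure D1:**
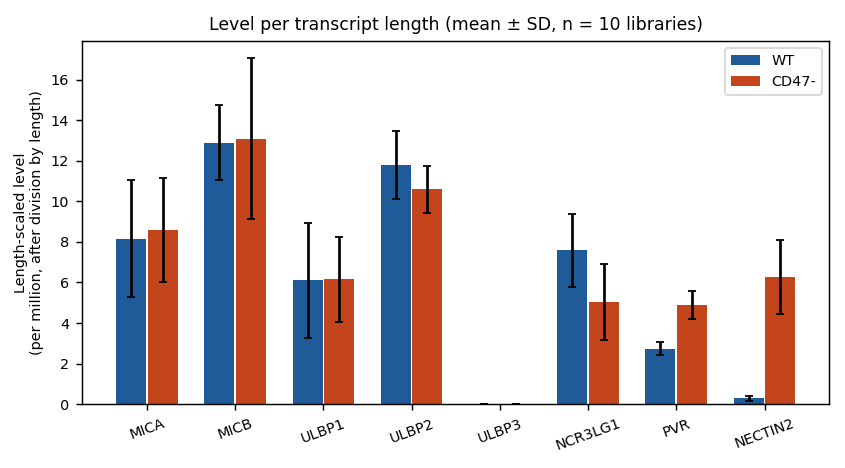
Levels of the 8 ligands per transcript length (y axis, counts divided by length and scaled to the same library sum) in WT (blue) and CD47- (orange) cells, as means with SD over 10 libraries a line. NECTIN2 goes from 0.287 in WT to 6.26 in CD47- cells, and ULBP3 has no visible bar.

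The first comparison asks how the ligands differ between WT and CD47- cells over all conditions. NECTIN2 and PVR, the DNAM-1 ligands, were higher in CD47- cells, by 4.10 ± 0.213 and 0.48 ± 0.0789 on the log2 scale. NCR3LG1, the NKp30 ligand, was lower by a log2 change of -0.86 ± 0.128, and the NKG2D ligand ULBP2 was lower by -0.40 ± 0.123 (± SE). The other 3 tested NKG2D ligands did not pass this test over all 20 libraries, although MICB did with libraries matched by treatment and time as a replicate block. Thus 4 of 7 tested ligands were called (edgeR quasi-likelihood test, Benjamini-Hochberg adjusted over 16327 genes), where 40.4% of all tested genes were called, 19.8% as higher and 20.6% as lower in CD47- cells. The count of ligands is near that background. Among the called ligands, NECTIN2 passed the filter on low counts only through its CD47- libraries. The median size of the log2 change was 0.40 over the 7 ligands and 0.29 over all tested genes.

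NECTIN2 encodes a nectin that joins cells and engages DNAM-1. In WT cells its level ran from 0.151 to 0.770 CPM with a median of 0.479, on 3 to 17 counts a library, while the CD47- libraries spanned 5.72 to 9.72 CPM around a median of 7.84, on 130 to 286 counts. The libraries of the lines did not overlap, which held for 11.5% of all tested genes. The means of 0.450 ± 0.196 and 7.79 ± 1.53 CPM (SD, n = 10 each) differed 17.3-fold, with an adjusted p of 5.12e-13 by edgeR. NECTIN2 was higher in the CD47- library in 10 of 10 pairs matched by treatment and time, by 2.73 to 3.96 on the scale log2(CPM + 0.5), which understates the change of so low a gene, and the exact two-sided sign-flip test gave p = 0.00195, the smallest that 10 pairs allow. Of its 6 isoforms, the ones with enough counts were NECTIN2-202, at 0.163 ± 0.167 (WT) and 3.00 ± 1.04 CPM (CD47-), and NECTIN2-201, at 0.121 ± 0.159 and 2.10 ± 0.609 CPM. Their log2 changes of 4.15 ± 0.498 and 4.04 ± 0.612 had edgeR adjusted p of 3.47e-06 and 6.46e-05 over all isoforms tested. NECTIN2 and these isoforms passed the filter on low counts only through the CD47- libraries, where they are high. Without that filter the log2 change of the gene was 4.11, with an edgeR adjusted p of 7.6e-15. The shares of the gene's counts given to NECTIN2-202 were close, 35.5% in WT and 38.0% in CD47- cells with all libraries pooled, but the WT share rests on 37.3 counts.

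PVR encodes CD155, the other DNAM-1 ligand. It ran from 11.9 to 14.7 CPM in WT cells (median 13.1) and from 15.8 to 22.1 CPM in CD47- cells (median 18.2). These ranges did not overlap either. The means were 13.2 ± 0.965 and 18.4 ± 2.35 CPM, a 1.39-fold difference with an edgeR adjusted p of 3.66e-05, and PVR was higher in CD47- cells in 10 of 10 pairs (two-sided sign-flip test, exact p = 0.00195). In the 4 pairs without anti-CD3 alone the difference was 0.43 with an edgeR adjusted p of 0.0655. PVR shares 35.0% of its 75-base stretches, taken over isoform PVR-205, with CEACAM19, which overlaps its 3′ end on the same strand, and with an unnamed gene. CEACAM19 was counted at 0.635 ± 0.234 (WT) and 0.489 ± 0.198 CPM (CD47-), so how reads were split between these genes was not tested. PVR-203 was the PVR isoform that passed the test, at 1.32 ± 0.370 and 2.73 ± 0.989 CPM (log2 change 1.05 ± 0.225, edgeR adjusted p = 0.00232), while the main isoform PVR-205 was at 9.05 ± 1.15 and 11.7 ± 3.20 CPM with a log2 change of 0.37 ± 0.147 and an edgeR adjusted p of 0.101.

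NCR3LG1 encodes B7-H6, a tumor-associated B7 family member read by NKp30. It ran from 40.0 to 65.4 CPM in WT cells (median 52.2) and from 21.3 to 44.1 CPM in CD47- cells (median 28.5). The ranges overlapped through 1 CD47- library, CD3+CD28+TSP1 at 3 h with 44.1 CPM. The next highest CD47- library was at 33.2 CPM, below every WT library. The means of 52.9 ± 9.82 and 29.1 ± 6.70 CPM were 1.82-fold apart (edgeR adjusted p = 9.35e-06), and NCR3LG1 was lower in CD47- cells in 10 of 10 pairs (two-sided sign-flip test, exact p = 0.00195). Isoform NCR3LG1-201 took 99.8% and 99.9% of the gene's counts in WT and CD47- cells and fell likewise, by 0.83 ± 0.134 on the log2 scale (edgeR adjusted p = 0.000128).

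ULBP2, a GPI-linked NKG2D ligand, ran from 12.8 to 22.5 CPM in WT (median 16.5) and from 9.75 to 17.5 CPM in CD47- cells (median 12.1), with overlapping ranges. Its means of 17.6 ± 3.37 and 13.3 ± 2.63 CPM differed with an edgeR adjusted p of 0.0128, and it was lower in CD47- cells in 7 of 10 pairs (two-sided sign-flip test, exact p = 0.0312). The 4 WT libraries above 20 CPM were the CD3+CD28 and CD3+CD28+TSP1 libraries at 1 and 3 h. In the pairs without anti-CD3 the log2 change was -0.16 with an edgeR adjusted p of 0.551. Isoform ULBP2-201 took 100% of the gene's counts in each line. Tested among all isoforms it was not called, at a log2 change of -0.37 ± 0.136 and an edgeR adjusted p of 0.0713. ULBP2 shares 20.8% of its 75-base stretches with RAET1G and RAET1L, which were at 0.351 and 0.00455 CPM in WT cells, so its values are uncertain to the extent that reads could be assigned to these copies.

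MICA ran from 6.73 to 16.8 CPM in WT and from 6.75 to 14.4 CPM in CD47- cells, MICB from 26.7 to 38.6 and from 20.7 to 38.2 CPM, and ULBP1 from 9.88 to 34.8 and from 14.3 to 24.4 CPM. All 3 overlapped between the lines. Their log2 changes were -0.22 ± 0.179 for MICA, -0.26 ± 0.129 for MICB and -0.28 ± 0.229 for ULBP1, with edgeR adjusted p of 0.350, 0.121 and 0.355. With the 10 pairs as a replicate block, MICB passed the test at a log2 change of -0.29 and an edgeR adjusted p of 0.00986. MICB was lower in the CD47- library in 8 of 10 pairs (two-sided sign-flip test, exact p = 0.0195).

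The MICB isoforms called between the lines went in opposite directions. MICB-204, the main isoform, was at 29.0 ± 2.03 (WT) and 20.3 ± 6.72 CPM (CD47-), and MICB-201 was at 3.67 ± 2.02 and 6.72 ± 1.19 CPM (SD, n = 10 each). The log2 changes were -0.51 ± 0.153 and 0.87 ± 0.276, with edgeR adjusted p of 0.0259 and 0.0360. MICB-201 took 10.8% of the MICB counts in WT and 23.2% in CD47- cells, and MICB-204 took 86.5% and 71.9%. Without the filter on low counts both lost their call, at adjusted p of 0.0733 and 0.0722. MICB-201 and MICB-204 have lengths of 2416 and 2411 bases and 6 exons each, and how reads were split between them was not tested. MICB-202 and MICB-203 were not called, at log2 changes of 0.88 ± 0.807 and 0.39 ± 0.290 (edgeR adjusted p = 0.543 and 0.434). In all, 16 of 30 ligand isoforms could be tested and 6 were called, 4 as higher and 2 as lower in CD47- cells, where 15.1% of 55450 tested isoforms were called. The higher ones include the NECTIN2 isoforms, which passed the filter only through the CD47- libraries.

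**Figure D2:**
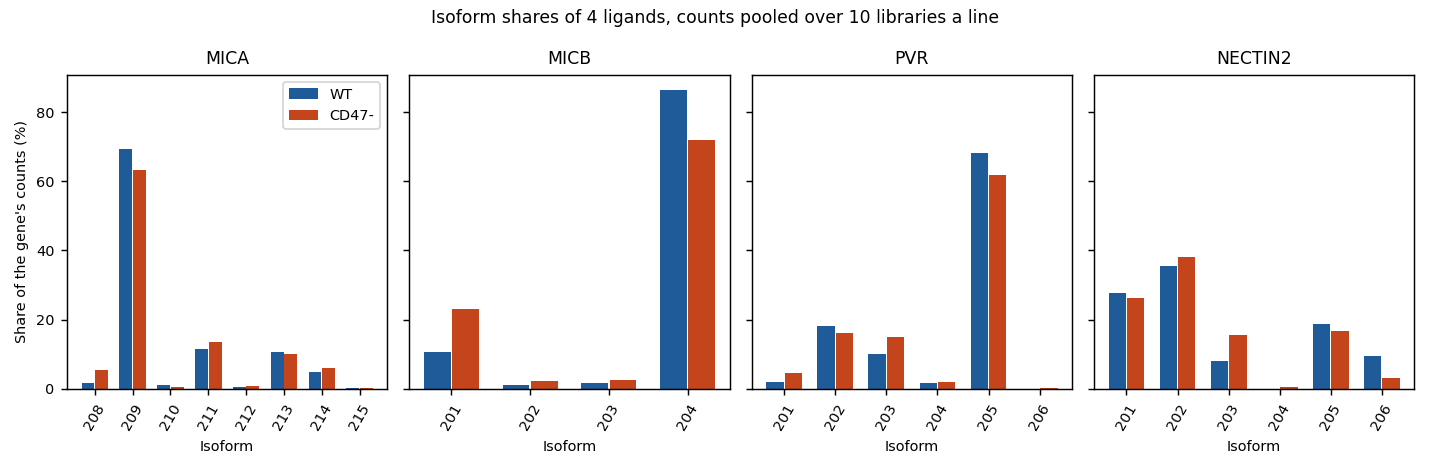
Share of each gene's expected counts (y axis, %) given to each isoform (x axis, by isoform number) of MICA, MICB, PVR and NECTIN2, pooled over 10 libraries a line, WT in blue and CD47- in orange. MICB-201 goes from 10.8% to 23.2% while MICB-204 goes from 86.5% to 71.9%.

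The lines were also compared at each time point. At 1 h, with 4 libraries a line, 6 of 7 ligands were called against 49.2% of all genes. At 3 h, with 3 libraries a line, 6 of 7 were called against 30.3%, and at 6 h 5 of 7 against 59.6%. NECTIN2, PVR and NCR3LG1 kept their direction and their call at each time point. NECTIN2 differed by a log2 change of 4.40 ± 0.266, 3.75 ± 0.215 and 4.14 ± 0.220 at 1, 3 and 6 h, PVR by 0.33 ± 0.0771, 0.43 ± 0.111 and 0.72 ± 0.0918, and NCR3LG1 by -1.20 ± 0.0988, -0.80 ± 0.136 and -0.48 ± 0.0657.

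ULBP1 reversed. In WT cells it was at 33.4, 34.8, 33.3 and 30.3 CPM at 1 h in the untreated, CD3+CD28, CD3+CD28+TSP1 and TSP1 libraries, at 19.1, 16.9 and 19.3 CPM at 3 h and at 10.5, 9.88 and 10.6 CPM at 6 h in the 3 treatments. In CD47- cells it was at 17.1, 15.8, 16.1 and 16.4 CPM at 1 h, at 24.4, 23.4 and 23.0 CPM at 3 h and at 14.9, 14.3 and 14.4 CPM at 6 h. At each time point every library of 1 line lay above every library of the other, WT above CD47- at 1 h and CD47- above WT at 3 and 6 h. With so few libraries the lines did not overlap for 45.2%, 47.8% and 64.9% of all tested genes at 1, 3 and 6 h. The log2 changes between the lines were -1.01 ± 0.0693, 0.36 ± 0.107 and 0.51 ± 0.0779, with edgeR adjusted p of 4.08e-07, 0.0328 and 0.00012. ULBP1 shares 3.09% of its 75-base stretches with RAET1K and ULBP3.

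The other NKG2D ligands were called between the lines at some time points and not at others. MICB was at 36.9 ± 1.31 (WT) and 37.1 ± 1.37 CPM (CD47-) at 1 h (SD, n = 4 each), and at 32.8 ± 1.58 and 21.6 ± 0.701 CPM at 3 h (n = 3 each), with log2 changes of 0.01 ± 0.0581 (edgeR adjusted p = 0.920) and -0.59 ± 0.0977 (edgeR adjusted p = 0.00227). At 6 h its log2 change was -0.39 ± 0.0894, with an edgeR adjusted p of 0.0023. MICA was lower in CD47- cells at 1 h, at 15.9 ± 1.16 against 12.1 ± 1.51 CPM (log2 change -0.39 ± 0.104, edgeR adjusted p = 0.00829), and its log2 changes of -0.17 at 3 h and 0.13 at 6 h were not called. Its change with time was not called as different between the lines, at 0.16 by 3 h and 0.46 by 6 h (edgeR adjusted p = 0.700 and 0.166). ULBP2 was lower at 1 h (-0.53 ± 0.158, edgeR adjusted p = 0.0158) and 3 h (-0.78 ± 0.153, edgeR adjusted p = 0.00531) and was not called at 6 h, at 0.13 ± 0.0775, where the CD47- libraries at 15.8 to 17.5 CPM lay just above the WT ones at 15.4 to 15.8 CPM. Of these 3, MICB differed between the lines in its change by 3 h and by 6 h, and ULBP2 by 6 h but not by 3 h (-0.21, edgeR adjusted p = 0.562).

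**Figure D3:**
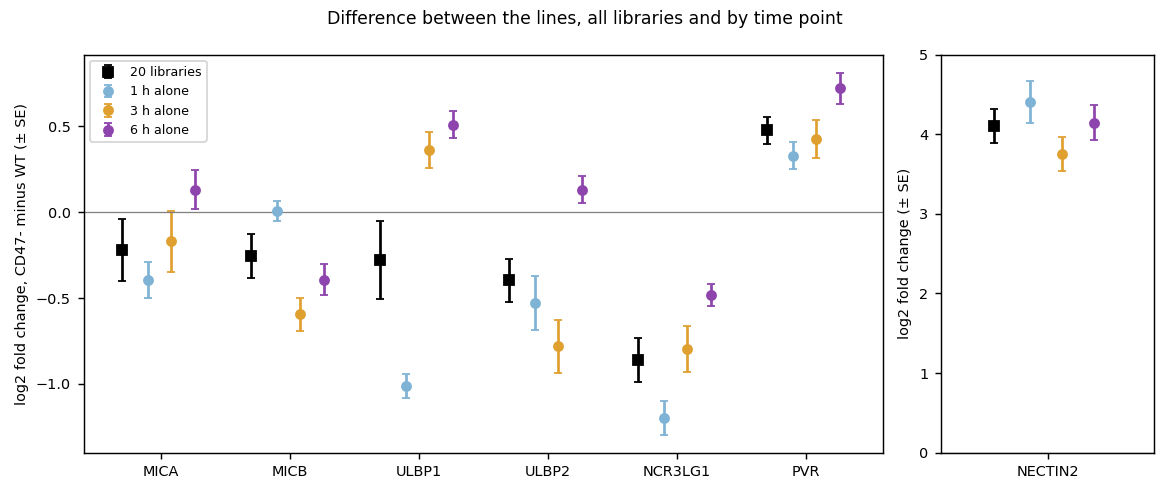
Log2 fold change between the lines (y axis, CD47- minus WT, bars are SE) for each tested ligand over 20 libraries (black squares) and at 1, 3 and 6 h alone (circles). ULBP1 goes from -1.01 at 1 h to 0.51 at 6 h, while NECTIN2, on an axis of its own, stays between 3.75 and 4.40.

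The second comparison asks how the ligands changed with time within a line, from 1 h to 3 and 6 h, in a model with a term for each treatment. No library was left untreated at 3 or 6 h, so time in culture and time under treatment cannot be told apart. In WT cells MICA, MICB and ULBP1 fell from 1 to 6 h and no ligand rose, so 3 of 7 were called as lower (4 by DESeq2, limma voom, upper-quartile scaling, without the low-count filter and with WT libraries alone, NCR3LG1 being the added one), where 24.8% of all genes were called as lower and 25.7% as higher. In CD47- cells MICA, MICB and NECTIN2 fell and ULBP2, NCR3LG1 and PVR rose over the same interval, where 27% of all genes were called as lower and 26% as higher. From 1 to 3 h, MICA and ULBP1 fell and NCR3LG1 rose in WT cells, against 17.4% of genes called lower and 16.9% called higher, and MICA and MICB fell and NCR3LG1, PVR and ULBP1 rose in CD47- cells, against 20.1% and 18%. The 3 h rise of PVR in CD47- cells (edgeR adjusted p = 0.0379) was not called by DESeq2 or limma voom, at 0.0698 and 0.111, without the low-count filter, at 0.225, with the CD47- libraries alone, at 0.0555, or in 7 of 20 fits without 1 library, at up to 0.178. The 3 h fall of MICA there (edgeR adjusted p = 0.0126) was lost without the TSP1 library at 1 or 3 h, at up to 0.0968, and with the CD47- libraries alone, at 0.0545.

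The MHC-linked ligands MICA and MICB fell in both lines. MICA went from 15.9 ± 1.16 CPM at 1 h to 9.57 ± 0.796 CPM at 3 h and 7.65 ± 0.956 CPM at 6 h in WT cells, with a log2 change of -1.03 ± 0.152 by 6 h (edgeR adjusted p = 6.46e-05). In CD47- cells it went from 12.1 ± 1.51 to 8.49 ± 1.74 and 8.30 ± 0.651 CPM, with a log2 change of -0.57 ± 0.153 (edgeR adjusted p = 0.00582), a call lost without the TSP1 library at 1 h, where MICA was at 14.4 CPM (log2 change -0.37, adjusted p = 0.0664). MICB reached 29.98 ± 2.99 CPM at 6 h in WT cells, a log2 change of -0.30 ± 0.0844 (edgeR adjusted p = 0.00843), which was lost without the CD3+CD28+TSP1 library at 6 h (log2 change -0.22, adjusted p = 0.0749). In CD47- cells MICB reached 22.6 ± 1.68 CPM, a log2 change of -0.72 ± 0.0855 (edgeR adjusted p = 8.53e-06) that held without any single library.

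ULBP1 fell by 0.83 ± 0.0804 by 3 h and by 1.67 ± 0.0832 by 6 h on the log2 scale in WT cells (edgeR adjusted p = 5.03e-06 and 4.73e-09). In CD47- cells it rose by 0.55 ± 0.0812 by 3 h (edgeR adjusted p = 0.00018) and was back near its 1 h level at 6 h, with a log2 change of -0.15 ± 0.0826 (edgeR adjusted p = 0.144), which limma voom called as a fall, at -0.22 and an adjusted p of 0.0487. The adjoining gene ULBP2 had a log2 change of -0.21 ± 0.135 by 6 h in WT cells (edgeR adjusted p = 0.220), which became a called fall without the WT TSP1 library at 1 h (-0.41, adjusted p = 0.0224) or at 6 h (-0.37, adjusted p = 0.0407). ULBP2 rose by 0.48 ± 0.137 in CD47- cells (edgeR adjusted p = 0.00899), from 12.0 ± 0.228 CPM at 1 h to 16.9 ± 0.935 CPM at 6 h, although without the CD3+CD28+TSP1 library at 6 h the adjusted p was 0.0606.

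NCR3LG1 had its highest mean at 3 h in both lines, at 63.2 ± 2.51 (WT) and 36.3 ± 6.80 CPM (CD47-) (SD, n = 3 each). NCR3LG1 at 3 h was not tested against 6 h, and its CD47- mean at 3 h includes a library at 44.1 CPM beside 31.6 and 33.2 CPM. From 1 to 3 h it rose by 0.34 ± 0.104 in WT (edgeR adjusted p = 0.0218, lost without the CD3+CD28+TSP1 or the TSP1 library at 1 or 3 h, up to an adjusted p of 0.146) and by 0.59 ± 0.108 in CD47- cells (edgeR adjusted p = 0.000912), and by 6 h it was 0.31 ± 0.108 above its 1 h level in CD47- cells (edgeR adjusted p = 0.0283, lost without CD3+CD28+TSP1 at 1 or 6 h or TSP1 at 6 h, up to 0.216, under limma voom, at 0.0595, and with the CD47- libraries alone, at 0.0583). In WT cells NCR3LG1 had a log2 change of -0.26 by 6 h with an edgeR adjusted p of 0.0541, which was between 0.0101 and 0.0489 under the 5 other settings named above. PVR stayed between 12.6 and 14.4 CPM on average at each time point in WT cells and rose in CD47- cells from 16.2 ± 0.339 CPM at 1 h to 20.7 ± 2.10 CPM at 6 h, a log2 change of 0.35 ± 0.0883 (edgeR adjusted p = 0.00386). NECTIN2 went from 8.55 ± 1.297 CPM at 1 h to 5.90 ± 0.281 CPM at 6 h in CD47- cells, a log2 change of -0.47 ± 0.173 (edgeR adjusted p = 0.0348) that DESeq2 did not call, at an adjusted p of 0.0584, and that was lost without CD3+CD28+TSP1 or TSP1 at 1 h or any library at 6 h. In WT cells NECTIN2 had too few counts, 3 to 17 a library, to show a change of that size, at -0.52 ± 0.335.

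**Figure D4:**
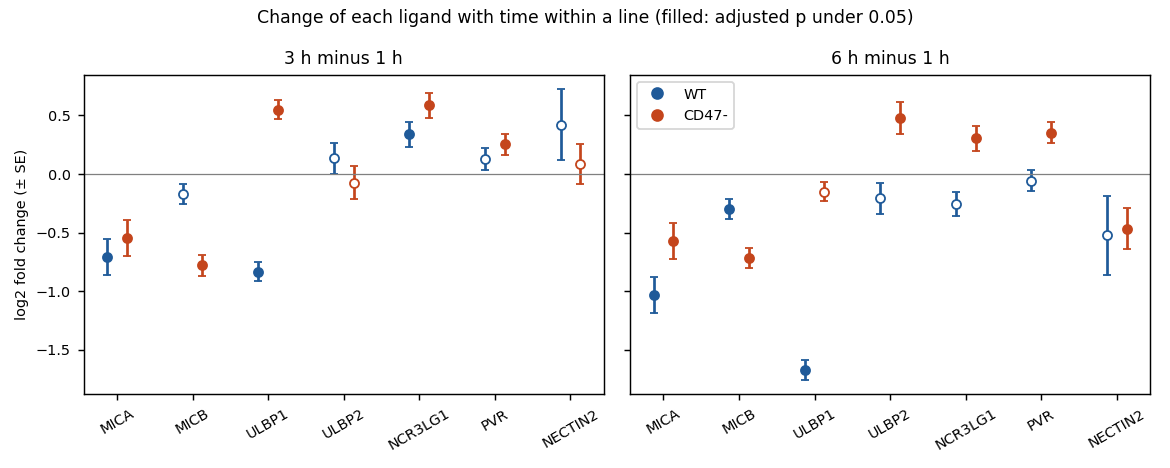
Log2 fold change from 1 h to 3 h (left) and to 6 h (right) within WT (blue) and CD47- (orange) cells, with SE, for the 7 tested ligands. Filled circles have an adjusted p under 0.05. ULBP1 stands at -1.67 in WT and -0.15 in CD47- cells at 6 h.

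The change with time was then compared between the lines by an interaction term. By 6 h, 5 of 7 ligands differed in their change, where 16.6% of all genes did, and by 3 h MICB and ULBP1 differed, where 4.28% of all genes did. For ULBP1 the difference, CD47- minus WT, was 1.38 ± 0.114 at 3 h and 1.52 ± 0.117 at 6 h on the log2 scale (edgeR adjusted p = 4.67e-05 and 2.87e-06), and it remained called without any single library, with adjusted p of at most 0.000656 and 4.67e-05. The remaining calls were less firm. The differences by 6 h were 0.69 ± 0.192 for ULBP2, 0.56 ± 0.150 for NCR3LG1, 0.41 ± 0.127 for PVR and -0.41 ± 0.120 for MICB, with edgeR adjusted p of 0.0266, 0.0214, 0.0414 and 0.0309. Leaving out 1 library ended the call of PVR in 13 of 20 cases, of MICB in 9, of ULBP2 in 8 and of NCR3LG1 in 3, with adjusted p of up to 0.127, 0.135, 0.103 and 0.0641. On all libraries, PVR was not called by DESeq2 (adjusted p = 0.061) or without the low-count filter (0.194), and MICB was not called with upper-quartile scaling (0.055) or without the filter (0.0944). The 3 h difference of MICB was -0.61 ± 0.120 (edgeR adjusted p = 0.0158, and up to 0.0763 without WT CD3+CD28+TSP1 at 1 or 3 h, WT TSP1 at 1 h or CD47- CD3+CD28 at 1 h).

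**Figure D5:**
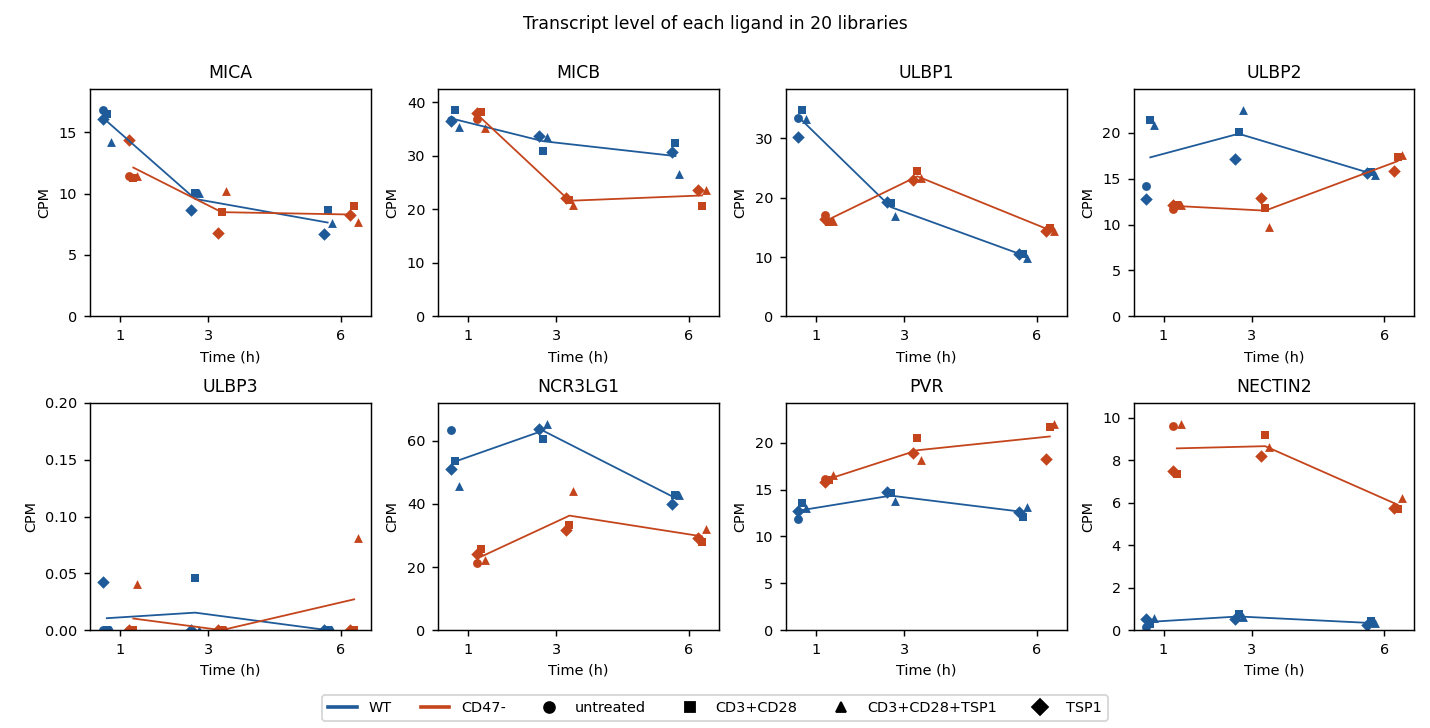
CPM (y axis) of each ligand against time (x axis, h) in the 20 libraries, WT in blue and CD47- in orange, with a marker for each treatment and lines through the mean of each time point. The ULBP1 lines cross between 1 and 3 h, MICB is close between the lines at 1 h and apart later, and the treatments at a given time lie close together for most ligands.

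The third comparison asks whether CD3+CD28 or TSP1 changed the ligands. No ligand passed the test in either line for CD3+CD28+TSP1 against TSP1, CD3+CD28+TSP1 against CD3+CD28, CD3+CD28 against untreated or TSP1 against untreated, nor for the differences between the lines in the first 2 of these. The untreated arm was 1 library a line, at 1 h, and was taken to vary like the other groups, so the 2 contrasts against it rest on that library. The background of calls was 0.0919% of all genes, 15 genes, for CD3+CD28+TSP1 against TSP1 in WT cells and 0% in the others by edgeR, with between 366 and 2636 genes at an unadjusted p under 0.05. The 15 genes became 0 to 42 without 1 library and 54 by DESeq2, and leaving out 1 library gave up to 226 genes for CD3+CD28 against untreated in WT cells. DESeq2 and limma voom called no ligand in any of these comparisons. The lowest adjusted p was 0.399, for NCR3LG1 in CD47- cells with CD3+CD28+TSP1 against TSP1, at a log2 change of 0.18 ± 0.107. The lowest unadjusted p of CD3+CD28+TSP1 against TSP1 in WT cells was that of ULBP2, at 19.6 ± 3.74 CPM with CD3+CD28+TSP1 and 15.2 ± 2.18 CPM with TSP1 (SD, n = 3 time points), a log2 change of 0.35 ± 0.135 with an unadjusted edgeR p of 0.0217 and an adjusted p of 0.827. In CD47- cells the same contrast of ULBP2 was -0.08 ± 0.139, and the difference between the lines had an unadjusted edgeR p of 0.0447 and an adjusted p of 0.705.

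The precision of these contrasts limits what they show. Within 2 SE, adding TSP1 to CD3+CD28 changed the ligands other than NECTIN2 by between -0.44 and 0.30 in WT and between -0.35 and 0.36 in CD47- cells on the log2 scale. For the same ligands, adding CD3+CD28 to TSP1 lay between -0.25 and 0.62 in WT and between -0.36 and 0.39 in CD47- cells. With NECTIN2 included, these last bounds were -0.39 and 0.87 in WT and -0.36 and 0.54 in CD47- cells. NECTIN2 in the untreated WT library rested on 3 counts, at 0.151 CPM, and its log2 changes against that library of 1.69 ± 0.662 with CD3+CD28 and 1.48 ± 0.665 with TSP1 had edgeR adjusted p of 0.580 and 0.683.

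Related genes were counted from lists of the pathway. Beside the 40.4% of all tested genes called between the lines, the shares called in these short lists are descriptions. Of 8 other ligands and nectins, 5 could be tested between the lines and 4 were called, 2 in each direction, with a median log2 change of 0.08. CADM1, the ligand of the T and natural killer cell receptor CRTAM, was at 5.92 ± 0.997 (WT) and 0.261 ± 0.154 CPM (CD47-) (log2 change -4.47 ± 0.231, edgeR adjusted p = 4.83e-13). RAET1E, a further NKG2D ligand, was at 2.05 ± 1.46 and 0.605 ± 0.336 CPM (-1.75 ± 0.382, edgeR adjusted p = 0.000762), and it rose by 6 h by 2.46 in WT and 1.09 in CD47- cells (difference -1.37, edgeR adjusted p = 0.032). BAG6, which can engage NKp30 when released from cells, was at 79.0 ± 5.53 and 113 ± 13.2 CPM (0.52 ± 0.068, edgeR adjusted p = 1.85e-06), so the NKp30 ligands NCR3LG1 and BAG6 differed in opposite directions. NECTIN1 was called as higher in CD47- cells and NECTIN3 was not called.

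Of 9 receptor genes, 6 could be tested, and CD226 and HCST were called, a share under that of all genes, both as higher in CD47- cells, with a median log2 change of 0.22 over the 6. CD226, which encodes DNAM-1, the receptor of PVR and NECTIN2, was at 73.5 ± 40.1 (WT) and 333 ± 54.7 CPM (CD47-) (log2 change 2.18 ± 0.290, edgeR adjusted p = 2.15e-06). CD226 rose by 2.12 on the log2 scale from 1 to 6 h in WT and by 0.42 in CD47- cells, so the gap between the lines narrowed (difference -1.70, edgeR adjusted p = 2.75e-07). HCST, which encodes DAP10, the signaling partner of NKG2D, was at 8.25 ± 0.998 and 16.7 ± 4.05 CPM (1.02 ± 0.128, edgeR adjusted p = 9.37e-07), and its 6 h change also differed between the lines, by 0.70 (edgeR adjusted p = 0.042). KLRK1, which encodes NKG2D itself, and TIGIT were at 0.105 and 0.0332 CPM in WT and at 0.066 and 0.0584 CPM in CD47- cells, too low to be tested. CD96 and PVRIG, the other receptors of this family, were at 37.7 and 18.8 CPM in WT and did not pass the test.

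Of 4 shedding genes, ADAM10 was called. ADAM10, a protease that can release MICA, MICB and B7-H6 from the cell surface, was at 278 ± 64.1 (WT) and 101 ± 10.0 CPM (CD47-) (log2 change -1.47 ± 0.113, edgeR adjusted p = 4.16e-10), and the median of the 4 was -0.23. ADAM10 rose by 0.79 by 6 h in WT cells and fell by 0.29 in CD47- cells (difference -1.07, edgeR adjusted p = 2.17e-05). Of 10 regulators, 4 were called, MYC and MYCN as higher and CHEK1 and RBM4 as lower in CD47- cells, a share near the 40.4% of all genes, with a median of 0.03. ATF4, a stress response factor known to act on the ULBP1 gene, had a log2 change of -0.99 from 1 to 6 h in WT cells (edgeR adjusted p = 8.1e-06) and of -0.03 in CD47- cells (edgeR adjusted p = 0.818), and the difference between the lines was 0.95 (edgeR adjusted p = 0.00146). Its time change stood beside that of ULBP1 in each line at 6 h, and its part in the ULBP1 values was not tested. The inhibitory MHC class I genes were called as lower in CD47- cells in 4 of 6 tested, beside 20.6% of all genes, among them HLA-B and B2M, and none was called as higher.

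The genes whose levels followed each ligand most closely over the 20 libraries, after the mean of each line was removed, are given as a description. They were EML6, NUFIP2 and TRIO for MICA (r = 0.946, 0.938 and 0.936), PARP2, EME1 and IST1 for MICB (r = 0.933, 0.930 and 0.929), and CEBPB, ATF3 and PYGM for ULBP1 (r = 0.933, 0.931 and 0.926). CLIC1, TRBC1 and an unnamed transcript followed ULBP2 (r of 0.887 for CLIC1), TOGARAM1, SLC23A3 and an unnamed transcript followed NCR3LG1 (0.923, 0.922 and 0.910), TTC38, LEAP2 and SLC7A5 followed PVR (0.850, 0.842 and 0.836), and ATF5, USH1G and MAP4K2 followed NECTIN2 (0.900, 0.856 and 0.856). Among the ligands, MICA went with ULBP1 (r = 0.681) and MICB (r = 0.667), PVR with ULBP2 (r = 0.591), and MICB against PVR (r = -0.708). The libraries share time points and line, and the closest of 16327 genes will always look close.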

How the data were processed

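RNA from 10 WT and 10 CD47- Jurkat libraries was sequenced. Per the submitters' processing notes, the authors used Cutadapt 1.18 for trimming, STAR 2.4.2a for alignment to GRCh38 and RSEM 1.3.3 for estimated counts. The deposited values are expected counts per gene and per isoform, not scaled for library size or length. The batch removed by the authors with ComBat and the strand setting are not given in the sources used here, so reads of overlapping genes could be split in ways not examined. Each table holds 2 columns of no sample, which were not used.

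Counts were rounded and tested with edgeR 4.0.16 in R 4.3.3 (filterByExpr by line, minimum count 10 and total 15, TMM factors, quasi-likelihood test, Benjamini-Hochberg adjustment over all genes or isoforms, threshold 0.05). CPM are TMM-scaled. The line comparison used 20 libraries with no other term. Time, treatment and interaction contrasts came from a single model with a term for each line and treatment and time terms for 3 and 6 h in each line. Pairs of libraries matched by treatment and time were compared by exact sign-flip tests on log2(CPM + 0.5), not adjusted. The pairing comes from the labels' treatment and time. Deviations from the line means correlated within each of the 10 pairs (r from 0.126 to 0.602). However, 2 of the 10 WT libraries correlated best with their own partner, and the others with another CD47- library, so the pairing is weak. The p-values measure the spread between libraries that differ in condition, since nothing in the labels says that a condition was repeated.

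Length-scaled levels used isoform lengths of GENCODE 44, which held 229321 of 232184 isoforms. Shared 75-base stretches were counted against all other genes' transcripts. Promoter windows are RefSeq sequences of GRCh38.p14, found for all 8 ligands. A limit of 3 counts was taken for detection and covers counting error only. Alternatives were DESeq2 1.42.0, limma voom 3.58.1 with quantile normalization, other scaling, other filters, a replicate block, a time term, subsets of libraries and the omission of each library. The tests were tried on simulated data. The ligands were chosen by gene name, and they and the lists were fixed with earlier results of these data known. The ligands are named by rule with the 3 most similar genes of each.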

Additional observations from a re-analysis of the deposited data

Results flagged for a closer look

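The change of ULBP1 with time differed between the lines by a tested interaction, by 1.38 at 3 h and 1.52 at 6 h on the log2 scale, CD47- minus WT (edgeR adjusted p = 4.67e-05 and 2.87e-06). Every WT library lay above every CD47- library at 1 h and below at 3 and 6 h. ULBP2 turned over as well, with every WT library above every CD47- library at 1 and 3 h and below at 6 h, where its difference of 0.13 was not called (edgeR adjusted p = 0.165). The lines did not overlap at 1, 3 and 6 h for 45.2%, 47.8% and 64.9% of all tested genes. The same kind of difference by 6 h was 0.69 for ULBP2, 0.56 for NCR3LG1, 0.41 for PVR and -0.41 for MICB, and by 3 h it was -0.61 for MICB, with edgeR adjusted p of 0.0266, 0.0214, 0.0414, 0.0309 and 0.0158. These calls were less firm than that of ULBP1. Leaving out 1 library ended them in 8, 3, 13, 9 and 4 of 20 fits, in the same order, and DESeq2 did not call PVR (adjusted p = 0.061).

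Within groups of 4 or 10 libraries, 3 single values stood far from the rest. MICA in the CD47- TSP1 library at 1 h was at 14.4 CPM, while the other 3 libraries of that line and time were between 11.2 and 11.5 CPM. ULBP2 in the untreated CD47- library was at 11.7 CPM beside 12.1 to 12.2 CPM in the others at 1 h, a small gap in a narrow range. NCR3LG1 in the CD47- CD3+CD28+TSP1 library at 3 h was at 44.1 CPM, while the other 9 CD47- libraries ran from 21.3 to 33.2 CPM, and that library is the shallowest, at 16107921 counts. Chance alone flags about 1 in 20 groups, and 28 groups were examined.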

How the results depend on the processing

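The line differences of NECTIN2, NCR3LG1, PVR and ULBP2 kept their direction and their call under DESeq2, limma voom, upper-quartile scaling, the low-count filters and a time term, except that NECTIN2 could not be tested where 1 CPM was required in every library. With the replicate block of matched pairs, MICB was called at -0.29, as with a time term at -0.29, and no other ligand's call changed between the lines. Per transcript length, however, the MICB means were 12.9 in WT and 13.1 in CD47- cells, so its direction depends on the scale. MICA and ULBP1 changed direction likewise. By time point alone, MICA was -0.39 at 1 h and 0.13 at 6 h, MICB 0.0081, -0.59 and -0.39 at the 3 time points, ULBP1 -1.01, 0.36 and 0.51, and ULBP2 0.13 at 6 h, so ULBP2, called over all libraries, changed sign without a call and ULBP1 changed sign to called values. In the 4 unactivated pairs alone, PVR was 0.43 and ULBP2 -0.16, both no longer called, 2 ligands and 2706 genes were called, and in the activated pairs alone 4067 genes, where fewer libraries entered. The other fits of the line difference called up to 9867 genes against 6596.

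Leaving out 1 library at a time moved no line call. The ligands called by 6 h then ranged from 2 to 4 in WT cells, from 3 to 6 in CD47- cells and from 2 to 5 for the difference between the lines, and by 3 h from 2 to 3, from 3 to 5 and from 1 to 2. The genes whose 6 h change differed between the lines ran from 1459 to 4273 and those at 3 h from 169 to 1066 (1397 at most under other settings). Among the changes with time and their differences between the lines, values that changed sign were not called. Without 1 library, NECTIN2 ran from -0.0033 to 0.20 by 3 h in CD47- cells, from -0.59 to 0.11 for the difference by 3 h and from -0.19 to 0.49 by 6 h, ULBP2 ran from -0.19 to 0.058 by 3 h in CD47- and from -0.043 to 0.26 in WT cells, and the MICA difference by 3 h from -0.027 to 0.37. Under limma voom NECTIN2 was -0.027 by 3 h in CD47- cells and -0.27 for the difference by 6 h, and MICA was -0.0047 for the difference by 3 h. With the CD47- libraries alone 3 ligands were called by 3 h, and without the low-count filter 3 differed by 6 h. The cause of these shifts was not tested.

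No ligand was called for a treatment under any setting, although without the low-count filter 84 to 540 genes were called, and the 15 genes of CD3+CD28+TSP1 against TSP1 in WT cells ranged from 0 to 42 without 1 library and from 2 to 54 under settings that kept the filter. Depth limits ULBP3 in both lines and NECTIN2 in WT cells.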

Other observations

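Genes within 250000 bases of the ligands were looked at after the ligand values were known. Around MICA and MICB, 34 other genes were tested between the lines and 17 were called, 6 as higher and 11 as lower in CD47- cells, beside 40.4% of all tested genes called. TNF, the inflammatory cytokine gene, was at 1.82 ± 1.00 (WT) and 17.9 ± 5.59 CPM (CD47-) (log2 change 3.30 ± 0.288, edgeR adjusted p = 3.25e-09), and LTA beside it was at 1.76 ± 0.550 and 4.24 ± 1.21 CPM. MICB-DT, a divergent transcript on the other strand whose start overlaps that of MICB in GENCODE 44, was at 1.55 ± 0.396 and 0.495 ± 0.265 CPM (log2 change -1.65 ± 0.236, edgeR adjusted p = 5.69e-06). MICB itself was not called over all libraries by the main fit. It was called as lower in CD47- cells with the replicate block of matched pairs (-0.29, edgeR adjusted p = 0.00986) and with a time term (-0.29, edgeR adjusted p = 0.00126).

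Around the ULBP genes 5 of 8 other tested genes were called, 4 of them as lower in CD47- cells. LRP11 was at 29.9 ± 3.79 (WT) and 12.7 ± 2.25 CPM (CD47-), and the pseudogene RAET1K was at 2.06 ± 0.719 and 3.29 ± 0.607 CPM. Around NCR3LG1, 2 of 4 were called, both as lower. Around PVR and NECTIN2, 2 of 11 were called, both as higher. With so few genes, these shares are descriptions beside the same 40.4%. TOMM40, the gene next to NECTIN2, was at 66.1 ± 30.7 (WT) and 74.5 ± 42.4 CPM (CD47-) with a log2 change of 0.17 ± 0.295 (edgeR adjusted p = 0.680). ZNF180 was at 13.1 ± 1.75 and 37.6 ± 2.86 CPM.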
